A study of Sus scrofa with 11 samples.

Results

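Blood vessel, lymphatic and sprouting genes were followed through 11 wounds of the Yucatan minipig, as 40 genes that were listed by name and looked up in a table of 30376 genes. All 40 were found. With earlier results of these data known, they were sorted by role into 25 genes of the blood vessel endothelium, 3 genes of tip cells, 5 lymphatic genes and 7 ligands or co-receptors. The wounds were full-thickness punches of 2 cm on the back, excised on day 10. In the diabetic group, 7 wounds came from 1 female minipig in which streptozotocin, a toxin of the insulin-producing beta cell, had been infused at 6 months of age. That animal was wounded 60 days later and received insulin until 1 week before wounding. In the non-diabetic group, 4 wounds came from 1 other female minipig, whose age is not given in the sources used here. Both groups shared the breed, the wound type and the day. Since every wound of a group came from the same animal, diabetes and the animal cannot be told apart, and every p below measures the spread between wounds.

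Blood endothelial cells line the vessels that grow into granulation tissue and are held together by VE-cadherin. New branches are led by a tip cell, which senses vascular endothelial growth factor (VEGF) through KDR, expresses apelin (APLN) and angiopoietin 2 (ANGPT2), and presents the Notch ligand DLL4 to its neighbours, which then stay in the stalk. Lymphatic vessels are specified by the transcription factor PROX1 and grow mainly in response to VEGFC acting on the receptor FLT4.

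Each value is an FPKM, the fragments of a gene per kilobase of its length after division by a library factor of the authors. That factor was 0.854 (non-diabetic wound 1) to 1.18 (diabetic wound 2) times the reads on genes, and its formula is not given in the sources used here. Reads on genes ranged from 28314785 to 40168372 per diabetic wound and from 32961018 to 36872400 per non-diabetic wound. Of the 40 genes, 39 averaged at least 1 FPKM over the 11 wounds, and the shallowest, PROX1, still rested on 60 to 412 reads per wound. The summed level of 6 pan-endothelial genes (5 of them on the list) was similar, at 178 to 226 FPKM in diabetic and 175 to 220 FPKM in non-diabetic wounds. The largest parts were PECAM1, at a mean of 91.3 FPKM, and VE-cadherin (CDH5), at 39.6 FPKM. Of the 6, ESAM alone had groups that did not overlap, and it was higher in diabetic wounds. What part cells other than endothelium have in this sum was not tested. Other cells varied more. The summed level of 7 keratinocyte markers ran from 38.3 FPKM in diabetic wound 4 and 284 FPKM in non-diabetic wound 1 up to 6469 FPKM in diabetic wound 6, and these 2 wounds of low keratin stood apart from the rest on the first principal component of all genes. Skeletal muscle markers summed to 1344 FPKM in diabetic wound 3 and to 0.21 FPKM or less elsewhere. In tissue RNA of this kind, fewer cells of a type and less RNA per cell cannot be told apart.

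Few of the vessel genes differed beyond the spread between wounds. Of the 40 genes, 1 was called higher in diabetic wounds (PLVAP), 1 was called lower (APLN) and 38 were not called. A call needed a Benjamini-Hochberg adjusted p under 0.05 over all 13956 genes tested with limma and an absolute difference over 0.5 on log2(FPKM + 0.5), a scale that understates the change of low genes. Over all genes tested, 1.35% were called higher and 1.66% lower. An unadjusted p under 0.05 was reached by 9 of the 40, which is 22.5%, against 18.4% of all genes. Groups that did not overlap were seen for 6 of the 40, a larger share than the 5.65% of all genes, on a list chosen with earlier results known. APLN and DLL4 were lower in every diabetic wound, and VEGFC, NOS3, ESAM and FLI1 were higher. The median difference was -0.03 over the list and 0.01 over all genes, and 36 of the 40 differed by 0.5 or less.

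**Figure D1:**
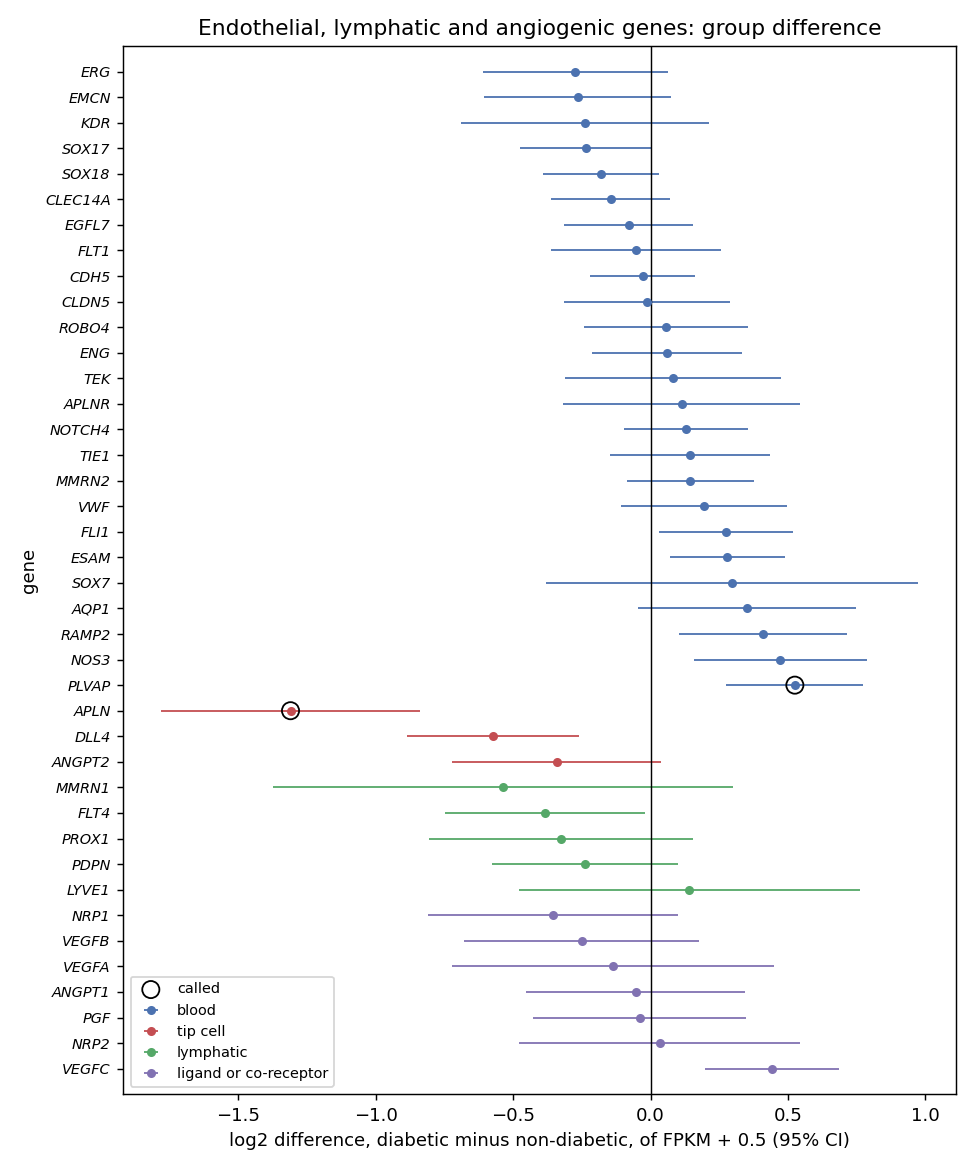
Difference between 7 diabetic and 4 non-diabetic wounds for each of the 40 genes (points, log2 of FPKM + 0.5, diabetic minus non-diabetic) with the 95% confidence interval from limma (lines), coloured by class, with called genes ringed. APLN lies farthest from 0 at -1.31 and most blood vessel genes have intervals that include 0.

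The 3 tip cell genes all lay lower in diabetic wounds, and the apelin ligand was the one that passed the test. This class was set with earlier results of these data known, so its shared direction is no test. KDR, through which tip cells sense VEGF, was counted as a blood vessel gene. APLN (chromosome X, 106236746 to 106246563, minus strand, Sscrofa11.1) encodes apelin, a peptide that acts on the receptor APLNR. Tip cells express APLN, and which cells of the wound made it was not tested. Its level was 1.54 FPKM in the lowest, 1.99 in the median and 3.93 in the highest diabetic wound, against 8.70, 4.84, 6.30 and 4.99 FPKM in the 4 non-diabetic wounds. Every diabetic wound was below every non-diabetic wound. The group means were 2.22 ± 0.806 (SD, n = 7) and 6.21 ± 1.78 FPKM (SD, n = 4), so the non-diabetic mean was 2.79-fold the diabetic one. The log2 difference was -1.31 with a standard error of 0.215 and an adjusted p of 0.00738 (limma). Within the wounds whose library name starts with L the difference was -1.27 (3 against 2 wounds), and it was -1.31 within those that start with R (4 against 2 wounds). What the letter stands for is not given in the sources used here.

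DLL4 (chromosome 1, 130376720 to 130386411, minus strand), the Notch ligand of the tip cell, was at 2.38 FPKM in the lowest, 3.11 in the median and 3.75 in the highest diabetic wound. The non-diabetic wounds held 5.57, 4.50, 5.58 and 3.98 FPKM, all above the highest diabetic wound. The log2 difference of -0.57 (standard error 0.143, 95% interval -0.89 to -0.26) had an adjusted p of 0.0506 (limma), just outside the threshold. It came inside when diabetic wound 2 or diabetic wound 4 was left out, with adjusted p of 0.0477 and 0.0463, and over all 26 alternatives the adjusted p ran from 0.0358 to 0.640.

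ANGPT2, an antagonist of the receptor TEK that loosens vessels, was at 1.28 FPKM in the lowest, 1.71 in the median and 2.97 in the highest diabetic wound, against 2.23, 2.54, 2.55 and 2.56 FPKM. Diabetic wounds 1 and 2 (2.97 and 2.52 FPKM) reached the non-diabetic range and the other 5 did not. Its difference of -0.34 (95% interval -0.72 to 0.04) did not pass (adjusted p = 0.326, limma), and it was -0.01 within letter L and -0.60 within letter R. ANGPT2 lies within MCPH1 on the opposite strand, which averaged 1.01 FPKM, and whether the counting used strand is not given in the sources used here.

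**Figure D2:**
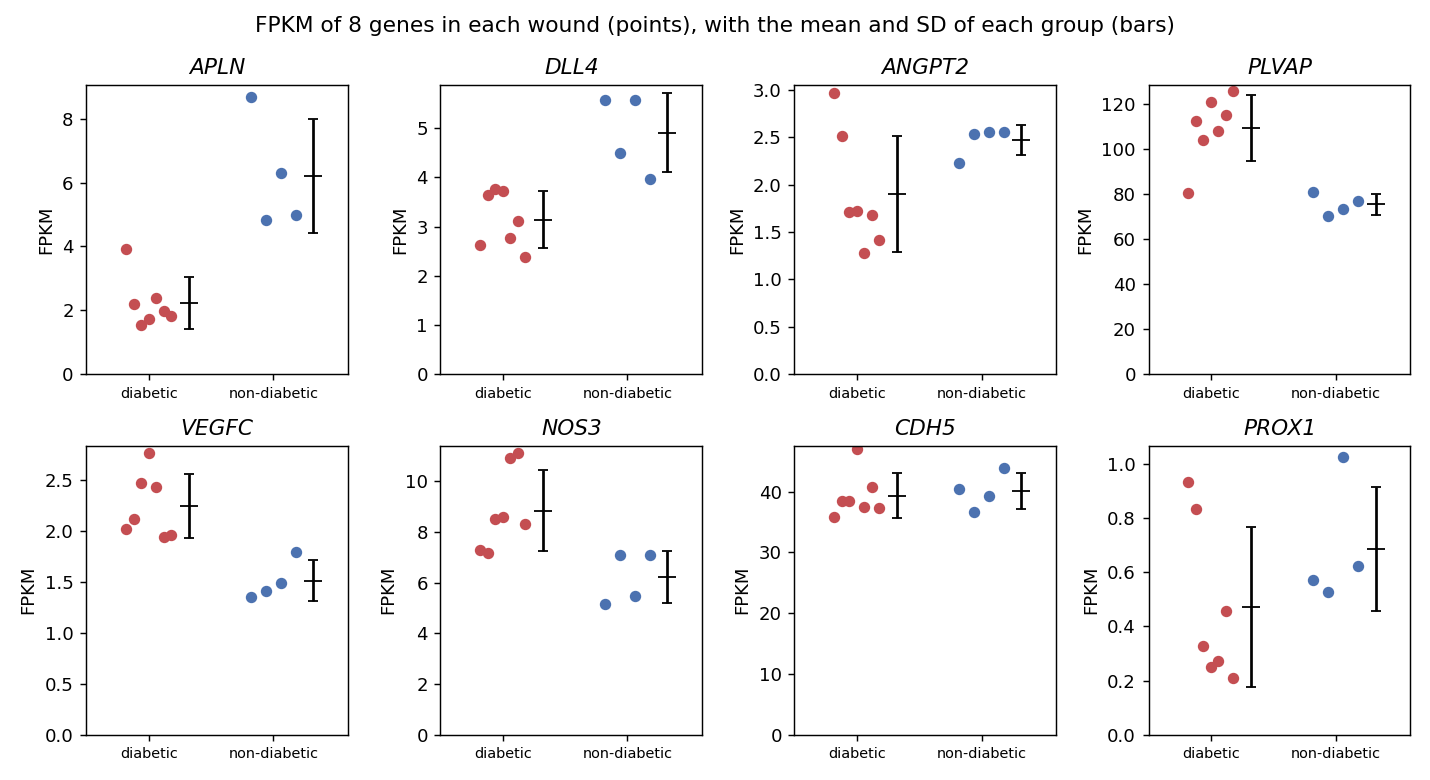
FPKM of 8 genes in each wound (vertical axes from 0, red points diabetic, n = 7, blue points non-diabetic, n = 4), with the mean and SD of each group as a bar beside the points. The groups are separate for APLN, DLL4, VEGFC and NOS3 and overlap for ANGPT2, CDH5 and PROX1. For PLVAP they overlap only through the single diabetic wound at 80.5 FPKM.

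Of the 25 blood vessel genes, 15 lay higher and 10 lower in diabetic wounds, with a median log2 difference of 0.08, and 1 was called. PLVAP (chromosome 2, 60324565 to 60344450, plus strand), the protein of the diaphragms that span endothelial fenestrae and caveolae, was the most abundant of the 40. It was at 80.5 FPKM in the lowest, 112 in the median and 126 in the highest diabetic wound, against 80.7, 70.1, 73.4 and 77.0 FPKM. Of the 7 diabetic wounds, 6 were above every non-diabetic wound, and diabetic wound 1 fell inside their range. The means were 109 ± 14.7 (SD, n = 7) and 75.3 ± 4.55 FPKM (SD, n = 4), which is 1.45-fold higher in diabetic wounds. The log2 difference was 0.52 with a standard error of 0.114 and an adjusted p of 0.0294 (limma). The call was lost without any single one of diabetic wounds 3 to 7 and without any single non-diabetic wound, where the difference was 0.49 to 0.56 and the adjusted p 0.0463 to 0.0929. The direction was the same under all 26 alternatives. Within library letter L the difference was 0.38 and within letter R it was 0.64.

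Because APLN and PLVAP carried the calls and DLL4 stood next to the threshold, the 250 bases before their annotated starts are shown. They were read 5′ to 3′ on the strand of the gene from NCBI's Sscrofa11.1. Capitals mark matches on either strand to words that stand for 4 classes of factor in vessels: TGGGAA (RBPJ, the factor behind Notch), ACGTG (hypoxia response core), CCGGAA (ETS) and ACAAAG (SOX). None of these words contains another.
APLN, chrX:106246564-106246813, minus strand: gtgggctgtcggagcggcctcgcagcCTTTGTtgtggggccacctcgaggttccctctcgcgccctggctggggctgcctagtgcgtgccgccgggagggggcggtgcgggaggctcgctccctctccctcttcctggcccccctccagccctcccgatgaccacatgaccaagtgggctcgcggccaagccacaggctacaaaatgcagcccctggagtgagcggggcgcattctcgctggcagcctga
DLL4, chr1:130386412-130386661, minus strand: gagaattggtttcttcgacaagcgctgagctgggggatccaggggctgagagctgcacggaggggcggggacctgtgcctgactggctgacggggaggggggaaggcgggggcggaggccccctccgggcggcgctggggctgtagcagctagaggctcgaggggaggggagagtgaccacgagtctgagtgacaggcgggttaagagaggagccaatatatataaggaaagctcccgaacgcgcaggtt
PLVAP, chr2:60324315-60324564, plus strand: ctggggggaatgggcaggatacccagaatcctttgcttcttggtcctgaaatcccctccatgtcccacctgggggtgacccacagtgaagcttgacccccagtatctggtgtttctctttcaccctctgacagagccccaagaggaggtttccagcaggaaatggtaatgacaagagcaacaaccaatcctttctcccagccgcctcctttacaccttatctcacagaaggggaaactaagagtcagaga
The APLN window held 1 match, to the SOX word on the opposite strand, with its outer edge 224 bases before the start. The DLL4 and PLVAP windows held none. Over the same windows of 20664 protein-coding genes, TGGGAA was present in 24.6%, ACGTG in 18.2%, CCGGAA in 13.1% and ACAAAG in 12.4%. Of the 40 genes, 9 had TGGGAA, 5 had ACGTG, 0 had CCGGAA and 8 had ACAAAG. These are matches of letters, and the windows depend on the annotated starts.

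Of the junction genes, VE-cadherin and claudin 5 differed little between the groups, while ESAM lay higher in every diabetic wound than in any non-diabetic wound. VE-cadherin (CDH5), the adhesion molecule of endothelial junctions, was at 35.9 to 47.0 FPKM in diabetic and 36.7 to 43.9 FPKM in non-diabetic wounds. Its difference of -0.03 had a 95% interval from -0.22 to 0.16, which leaves out a change of the size called here. Claudin 5 (CLDN5), the tight junction strand of endothelium, differed by -0.01 (95% interval -0.32 to 0.29). ESAM, an adhesion molecule of the same junctions, was at 18.5 FPKM in the lowest, 19.7 in the median and 25.1 in the highest diabetic wound, against 17.4, 14.99, 18.1 and 17.0 FPKM. The groups did not overlap, by a margin of 18.5 against 18.1 FPKM, and the difference of 0.28 (95% interval 0.07 to 0.49) did not pass (adjusted p = 0.137, limma).

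Other surface proteins gave small differences with overlapping groups. The calcitonin receptor partner RAMP2, which forms the adrenomedullin receptor, had a mean of 86.5 ± 15.5 FPKM (SD, n = 7) against 64.6 ± 7.65 FPKM (SD, n = 4), a difference of 0.41 (95% interval 0.10 to 0.71, adjusted p = 0.141, limma). The water channel AQP1 differed by 0.35 (95% interval -0.04 to 0.75). Endoglin (ENG), a co-receptor for BMP9, differed by 0.06 and the guidance receptor ROBO4 by 0.06. On the other side of 0 were the sialomucin endomucin (EMCN), at -0.26 (95% interval -0.60 to 0.07), and CLEC14A, at -0.15 (95% interval -0.36 to 0.07). Of the 12 junction and surface genes, the lymphatic PDPN and LYVE1 included, 7 lay higher and 5 lower.

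NOS3, the endothelial nitric oxide synthase, was at 7.17 FPKM in the lowest, 8.51 in the median and 11.11 in the highest diabetic wound, against 5.18, 7.11, 5.49 and 7.08 FPKM. Every diabetic wound was above every non-diabetic wound, the nearest pair being 7.17 and 7.11 FPKM. The difference of 0.47 (standard error 0.143, 95% interval 0.16 to 0.79) had an adjusted p of 0.101 (limma). Among secreted and matrix proteins, von Willebrand factor (VWF), which tethers platelets, differed by 0.19 (95% interval -0.11 to 0.50), MMRN2 by 0.14 and EGFL7 by -0.08, none of them called.

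Of the 5 blood vessel transcription factors, FLI1 and SOX7 lay higher and ERG, SOX17 and SOX18 lower, and none was called. FLI1, an ETS factor also found in blood cells, ran from 12.3 to 17.5 FPKM in diabetic wounds and was at 12.3, 12.1, 9.49 and 11.9 FPKM in non-diabetic wounds. The groups met without overlapping, at 12.35 and 12.29 FPKM, and the difference was 0.27 (95% interval 0.03 to 0.52, adjusted p = 0.213, limma). Its ETS relative ERG, which keeps endothelial identity, differed by -0.27 (95% interval -0.61 to 0.06). SOX17, an arterial factor, differed by -0.23 and SOX18 by -0.18. TCEA2 overlaps SOX18 on the opposite strand and was the more abundant of the pair, at 30.5 against 17.8 FPKM, so without a known strand setting the reads of SOX18 are uncertain. A gene on the opposite strand also overlaps FLI1, at a mean of 2.81 against 13.1 FPKM. SOX7 spread most, with a lowest value of 2.98 FPKM in diabetic wound 4 and 3.32 FPKM in non-diabetic wound 1, and a highest of 10.1 FPKM in diabetic wound 6. The 2 wounds lowest in SOX7 were those with the lowest keratinocyte markers. Whether this bears on SOX7 was not tested.

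The receptors that read angiogenic ligands were not called in either direction. KDR, the main VEGF receptor of endothelium, was at 10.7 FPKM in the lowest, 13.5 in the median and 22.9 in the highest diabetic wound, against 15.6, 13.9, 20.7 and 21.2 FPKM. The groups overlapped, and the difference was -0.24 (95% interval -0.69 to 0.21). The decoy receptor FLT1 differed by -0.05 (95% interval -0.36 to 0.26). The angiopoietin receptors TEK and TIE1 differed by 0.08 (95% interval -0.31 to 0.47) and 0.14 (95% interval -0.15 to 0.44). APLNR, the receptor for the ligand that fell, had a mean of 39.8 ± 9.27 FPKM (SD, n = 7) against 36.1 ± 5.86 FPKM (SD, n = 4), and its difference of 0.11 had a 95% interval of -0.32 to 0.54. Per kilobase, APLNR was thus the more abundant of the pair in every wound. NOTCH4, the Notch receptor of endothelium, differed by 0.13 (95% interval -0.10 to 0.36). Every one of these receptors changed sign between library letters L and R. KDR differed by 0.30 and -0.71, FLT1 by 0.20 and -0.29, and TEK by 0.49 and -0.26. TIE1 differed by -0.13 and 0.37, APLNR by -0.19 and 0.38, and NOTCH4 by -0.03 and 0.25.

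Of the 5 lymphatic genes, 4 lay lower in diabetic wounds and none was called, with a median difference of -0.33. This tally did not hold within library letters. Within letter L (3 against 2 wounds) LYVE1, MMRN1 and PROX1 lay higher, by 1.09, 0.25 and 0.15, and within letter R (4 against 2 wounds) all 5 lay lower, these 3 at -0.70, -1.18 and -0.72. FLT4 lay lower within both, at -0.35 and -0.40. FLT4, the receptor of VEGFC, was at 2.76 FPKM in the lowest, 3.73 in the median and 5.78 in the highest diabetic wound, against 6.65, 4.44, 4.71 and 5.40 FPKM. Of the diabetic wounds, 6 lay below every non-diabetic wound and diabetic wound 1 lay above 3 of them. The difference of -0.38 (95% interval -0.75 to -0.02) had an adjusted p of 0.244 (limma). FLT4 is also carried by sprouting blood vessels.

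PROX1, the factor that sets lymphatic identity, was the rarest of the 40, at 0.211 FPKM in the lowest, 0.327 in the median and 0.934 in the highest diabetic wound, against 0.572, 0.526, 1.02 and 0.625 FPKM. In 5 diabetic wounds it was below every non-diabetic wound, and in diabetic wounds 1 and 2 it was at 0.934 and 0.835 FPKM. The difference was -0.33 (95% interval -0.81 to 0.15). MMRN1, a secreted protein that lymphatic endothelium and platelets both make, spread from 5.59 FPKM in diabetic wound 7 to 31.3 FPKM in diabetic wound 1, against 13.6, 13.4, 19.6 and 17.6 FPKM. Its difference of -0.54 had the widest interval of the list, -1.37 to 0.30. Of 5 platelet markers, 4 were found and 2 passed the filter, neither of which was called, and the sum of the 4 was 2.24 to 5.05 FPKM in diabetic and 2.66 to 3.49 FPKM in non-diabetic wounds.

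LYVE1, the hyaluronan receptor of initial lymphatics that some macrophages also carry, was at 3.95 FPKM in the lowest, 4.86 in the median and 8.76 in the highest diabetic wound, against 3.13, 3.79, 7.20 and 7.63 FPKM. Its difference was 0.14 (95% interval -0.48 to 0.76). Of 10 macrophage markers, 3 (MRC1, MARCO and CD14) were called higher and 0 lower. The shares over all genes tested were 1.35% higher and 1.66% lower. The sum of the 10 markers was 752 to 1709 FPKM in diabetic and 483 to 900 FPKM in non-diabetic wounds. Podoplanin (PDPN), which fibroblasts and basal keratinocytes make as well as lymphatics, was at 48.7 ± 9.11 FPKM (SD, n = 7) against 56.7 ± 6.00 FPKM (SD, n = 4), a difference of -0.24 (95% interval -0.58 to 0.10). PDPN was thus far above PROX1 per kilobase in every wound. What part macrophages or other cells have in LYVE1 and PDPN was not tested.

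None of the growth factors was called, and VEGFC came closest. VEGFC, the main lymphatic growth factor, was at 1.94 FPKM in the lowest, 2.12 in the median and 2.76 in the highest diabetic wound, against 1.35, 1.41, 1.49 and 1.80 FPKM. Every diabetic wound was above every non-diabetic wound. The means were 2.24 ± 0.314 (SD, n = 7) and 1.51 ± 0.197 FPKM (SD, n = 4), a log2 difference of 0.44 (standard error 0.111, 95% interval 0.20 to 0.69) with an adjusted p of 0.0532 (limma). VEGFC thus missed both the p and the size needed for a call. Over the 26 alternatives the adjusted p ran from 0.0278 to 0.395. It was under 0.05 in 5 of them, in 4 of which the difference was still under 0.5, and the gene was called in the remaining 1, voom on the recovered reads. Macrophages, whose markers lay higher as given above, are among the known sources of VEGFC, and their part in it was not tested.

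VEGFA, the ligand that tip cells follow, was at 9.15 FPKM in the lowest, 14.4 in the median and 25.0 in the highest diabetic wound, against 11.8, 18.8, 19.3 and 15.9 FPKM. The groups overlapped in full, and the difference of -0.14 had a 95% interval of -0.72 to 0.45. VEGFB, which binds FLT1, differed by -0.25 (95% interval -0.68 to 0.18), placental growth factor (PGF), another FLT1 ligand, by -0.04 (95% interval -0.43 to 0.35), and ANGPT1, which pericytes make to settle vessels through TEK, by -0.05 (95% interval -0.45 to 0.34). Of the neuropilins, co-receptors for VEGF and semaphorins, NRP1 differed by -0.35 (95% interval -0.81 to 0.10) and NRP2, which favours lymphatics, by 0.03 (95% interval -0.48 to 0.54). Of these 7 ligands and co-receptors, 2 lay higher and 5 lower. This tally did not hold within library letters either. Within letters L and R, VEGFB differed by -0.84 and 0.26, NRP1 by 0.17 and -0.82, and NRP2 by -0.62 and 0.59. VEGFA, PGF and ANGPT1 also changed sign between the letters. VEGFC alone kept its sign, at 0.52 and 0.36.

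Set against the blood vessel genes of the same wound, the classes differed in how they parted the groups. The mean log2 level of the 3 tip cell genes minus that of the 25 blood vessel genes was -2.83 to -2.16 in diabetic wounds and -1.99 to -1.58 in non-diabetic wounds. These ranges did not overlap. For the 5 lymphatic genes this difference was -1.65 to -0.62 in diabetic and -1.12 to -0.74 in non-diabetic wounds, which overlapped. For the ligands and co-receptors it was -1.07 to -0.74 and -0.93 to -0.67, which also overlapped. No p was computed for these means, since the classes were set with earlier results known, and APLN and DLL4 each part the groups by themselves. The log2 level of APLN minus that of CDH5 in the same wound was -4.42 to -3.04 in diabetic and -3.01 to -2.16 in non-diabetic wounds. For DLL4 it was -3.72 to -3.19 and -3.31 to -2.71, which overlapped. For ANGPT2 it was -4.42 to -3.39 and -3.91 to -3.61, which overlapped too. This measure also parted the groups for PLVAP (1.16 to 1.74 and 0.80 to 0.99) and VEGFC (-4.08 to -3.70 and -4.47 to -4.27). Such a parting was thus not particular to tip cell genes.

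**Figure D3:**
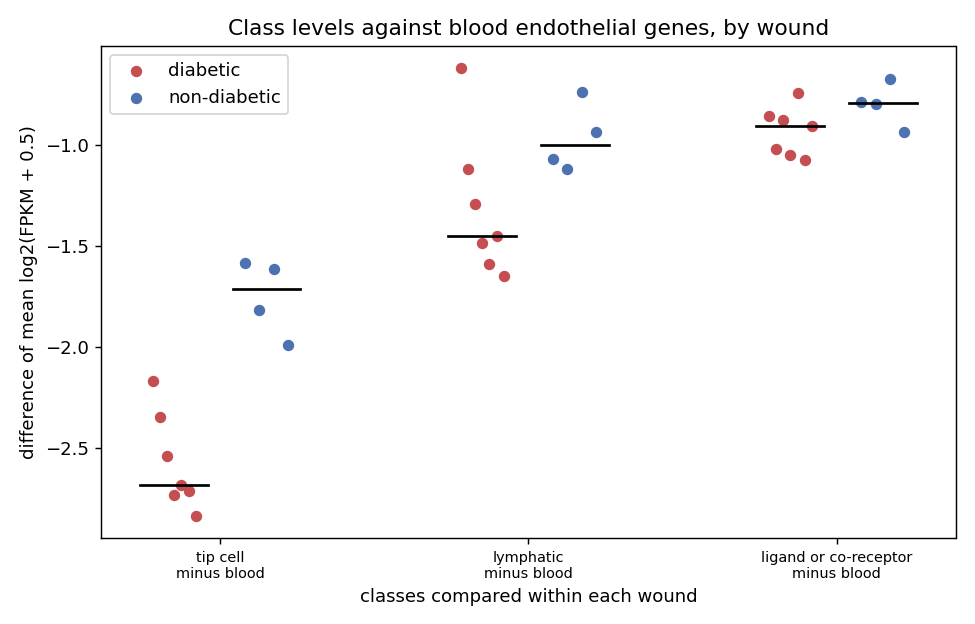
Mean log2(FPKM + 0.5) of the tip cell, lymphatic and ligand or co-receptor genes minus that of the 25 blood vessel genes in each wound (points, red diabetic, blue non-diabetic), with the median of each group as a line. The tip cell points part by group, with diabetic wounds at -2.16 and lower and non-diabetic wounds at -1.99 and higher, and the other classes overlap.

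Within groups, the genes did not vary together as a block. Diabetic wound 4, low in keratin and with the highest macrophage sum, was the highest diabetic wound for 13 of the 40 genes, among them CDH5, CLDN5, ESAM, RAMP2, TIE1 and VEGFC. Diabetic wound 1 was the highest for 11, among them KDR, APLN, ANGPT2, FLT4, PROX1 and MMRN1, and the lowest for 8, among them PLVAP, VWF and APLNR. The 4 highest wounds of the 11 for KDR, LYVE1, PROX1, MMRN1 and EMCN were diabetic wounds 1 and 2 and non-diabetic wounds 3 and 4. The fibroblast markers summed to 22456 and 18978 FPKM in diabetic wounds 1 and 2 and to 36900 to 52415 FPKM in the other diabetic wounds. They summed to 34554 and 34062 FPKM in non-diabetic wounds 3 and 4, against 64501 and 44657 FPKM in wounds 1 and 2. Whether this tissue make-up bears on the vessel genes was not tested.

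**Figure D4:**
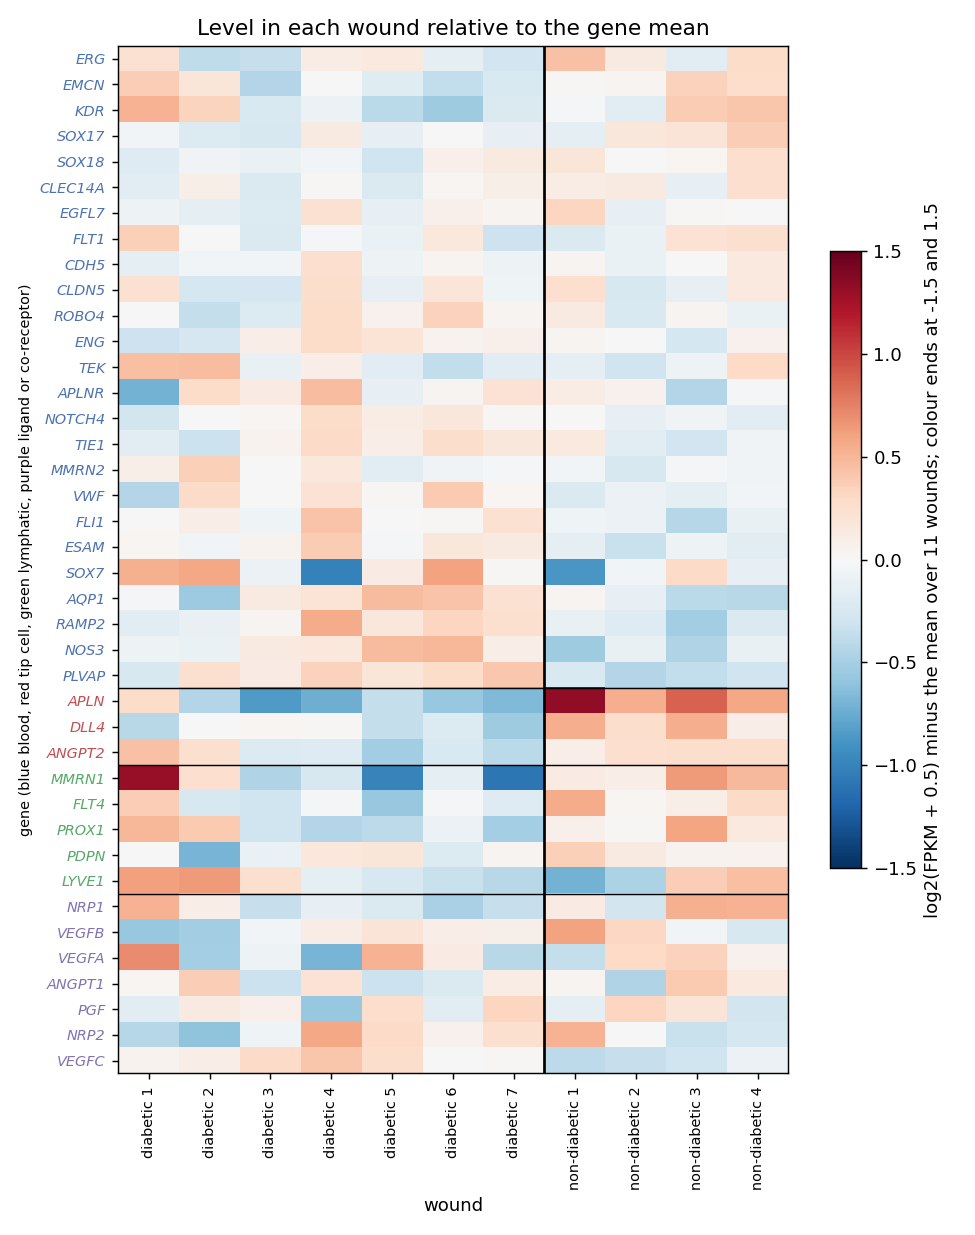
Level of the 40 genes (rows, grouped by class) in each of 11 wounds (columns, diabetic left of the line) as log2(FPKM + 0.5) minus the mean of the gene over all wounds. APLN and DLL4 are below their mean in most diabetic and above it in all non-diabetic wounds, and MMRN1, KDR, LYVE1 and PROX1 are high in diabetic wounds 1 and 2 and non-diabetic wounds 3 and 4.

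A further 96 vessel genes in 6 lists, also chosen with earlier results known, placed the 40 in their pathways. Of them 94 were found, 90 were tested, 4 were called higher, 2 were called lower and 84 were not called, where 1.35% of all genes tested were called higher and 1.66% lower. The median difference was 0.02. Groups did not overlap for 7 of the 90 (3 higher and 4 lower), which is 7.78% against 5.65% of all genes. Among 14 other Notch pathway genes, 2 were called higher and 0 lower. The Notch ligand JAG2, an alternative partner to DLL4, was at 7.88 FPKM in the lowest, 9.41 in the median and 10.4 in the highest diabetic wound, against 5.12, 6.21, 6.93 and 7.33 FPKM. The groups did not overlap, and JAG2 rose by 0.51 (standard error 0.105, adjusted p = 0.0224, limma). HEY2, a transcriptional repressor induced by Notch, had a mean of 2.39 ± 0.714 FPKM (SD, n = 7) against 1.02 ± 0.233 FPKM (SD, n = 4) and rose by 0.90 (adjusted p = 0.0335, limma). Its lowest diabetic wound, at 1.18 FPKM, lay inside the non-diabetic range. NOTCH2, on the other side, was lower in every diabetic wound, with 12.3 to 17.8 FPKM against 22.6, 18.4, 23.3 and 20.9 FPKM. Its adjusted p was 0.0498 (limma) and its difference of -0.44 was under the size needed for a call. The related target HEY1 differed by -0.32 and NOTCH3, the most abundant of the list and a receptor of mural cells, by 0.27, neither called. HES1 (0.46), NRARP (0.32) and HEYL (0.19) of the same list lay higher and were not called. Within letters L and R, HES1 differed by 1.26 and -0.25, NRARP by 1.07 and -0.30, and HEYL by -0.26 and 0.57. Of the 14 genes, 9 lay higher and 5 lower.

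Among 26 other endothelial genes, of which 25 were tested, 1 was called higher and 0 lower. It was GJA4, the gap junction protein connexin 37 of arterial endothelium. Its level was 19.9 FPKM in the lowest, 26.4 in the median and 41.2 in the highest diabetic wound, against 16.1, 11.5, 12.3 and 14.8 FPKM. The groups did not overlap. GJA4 rose by 0.96 on the log2 scale (standard error 0.186, adjusted p = 0.0176, limma), a 2.02-fold ratio of the means, and by 0.74 within library letter L and 1.13 within letter R. The call was lost without non-diabetic wound 2 and without non-diabetic wound 3. CD34, on the other side, was lower in every diabetic wound, with 14.8 to 23.9 FPKM against 30.1, 25.7, 24.4 and 25.0 FPKM. Its difference of -0.33 (95% interval -0.60 to -0.06) did not pass (adjusted p = 0.176, limma). The most abundant of this list, PECAM1, was at 91.8 ± 13.4 FPKM (SD, n = 7) against 90.4 ± 13.1 FPKM (SD, n = 4), a difference of 0.02 (95% interval -0.26 to 0.30). The arterial ligand EFNB2 differed by -0.51 (95% interval -1.19 to 0.16) and the venous factor NR2F2 by 0.05 (95% interval -0.32 to 0.42), neither called. Both changed sign between letters L and R, EFNB2 at 0.35 and -1.25 and NR2F2 at -0.35 and 0.42.

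None of the 11 other tip cell and sprouting genes tested was called, and 8 of them lay lower in diabetic wounds. APELA, the second peptide ligand of APLNR, had a mean of 2.50 ± 1.27 FPKM (SD, n = 7) against 5.38 ± 1.76 FPKM (SD, n = 4), a difference of -1.04 (95% interval -1.77 to -0.31, adjusted p = 0.116, limma) with overlapping groups. The differences of the list ran from -1.04, for APELA, to 0.25. Within letter L APELA differed by -1.87 and within letter R by -0.33. A lncRNA of the opposite strand overlaps APELA. COL4A1, the basement membrane collagen that tip cells make and the most abundant of this list, differed by -0.14 (95% interval -0.43 to 0.16).

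Among the other ligands, guidance cues and inhibitors, 21 were tested, 1 was called higher and 1 lower. ANGPTL4, a secreted inhibitor of lipoprotein lipase that also acts on vessels, was at 64.4 FPKM in the lowest, 129.7 in the median and 140.1 in the highest diabetic wound, against 12.3, 28.2, 16.0 and 23.5 FPKM. The groups did not overlap, and ANGPTL4 rose by 2.58 (standard error 0.253, adjusted p = 0.000338, limma), a 6.00-fold ratio of the means. It is a target of fatty acid sensing PPAR factors and of hypoxia, and is made by adipocytes, macrophages and keratinocytes as well as vessels. Adipocyte markers summed to 276 to 826 FPKM in diabetic and 273 to 470 FPKM in non-diabetic wounds. That sum was carried by FABP4, at a mean of 403 against 210 FPKM (log2 difference 0.92, not called). Cells other than adipocytes, macrophages among them, also make FABP4. The other 4 adipocyte markers lay lower in diabetic wounds (ADIPOQ -0.97, PLIN1 -1.12, CIDEC -1.01 and LEP -1.41). LEP alone was called, and the median over the 5 was -1.01. The part of these cells in ANGPTL4 was not tested. SEMA3C, a semaphorin that signals through neuropilins and plexins, was at 2.19 FPKM in the lowest, 2.47 in the median and 2.66 in the highest diabetic wound, against 8.06, 4.04, 3.85 and 4.66 FPKM. The groups did not overlap, and SEMA3C fell by 0.89 on the log2 scale (standard error 0.163, adjusted p = 0.0138, limma). The most abundant of this list, the matricellular inhibitor THBS2, differed by -0.28 (95% interval -0.98 to 0.42).

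None of the 7 other lymphatic genes tested was called. CCL21, the chemokine by which lymphatics draw dendritic cells and the most abundant of them, was at 48.1 ± 17.96 FPKM (SD, n = 7) against 59.3 ± 15.2 FPKM (SD, n = 4), a difference of -0.34 (95% interval -0.91 to 0.22). Of 12 mural cell genes, 7 lay higher and 5 lower in diabetic wounds, with a median difference of 0.24. Of them 1 was called lower and 0 higher. DES, counted among the higher genes, was at 181 FPKM in diabetic wound 3, the wound with skeletal muscle markers. It was at 6.34 to 8.34 FPKM in the other diabetic wounds and at 5.61 to 10.4 FPKM in non-diabetic wounds. RGS5, a regulator of G protein signalling that marks pericytes, was at 28.9 FPKM in the lowest, 37.1 in the median and 54.1 in the highest diabetic wound, against 74.0, 50.1, 83.6 and 74.2 FPKM. Of the diabetic wounds, 6 were below every non-diabetic wound, and diabetic wound 2 was above 1 of them. RGS5 fell by 0.87 on the log2 scale (standard error 0.199, adjusted p = 0.0350, limma), by 0.54 within library letter L and by 1.17 within letter R. ACTA2, the smooth muscle actin that myofibroblasts share and the most abundant of the list, differed by 0.27 (95% interval -0.28 to 0.82). The calls of JAG2, HEY2 and RGS5 were each lost in 12 or 13 of the 26 alternatives, and their directions were kept in all of them. JAG2 was not called without diabetic wound 3 or 6 or without non-diabetic wound 1, 2 or 3, and HEY2 was not called without diabetic wound 3, 5, 6 or 7 or without any of the 4 non-diabetic wounds. RGS5 was not called without any of diabetic wounds 3 to 7 or without non-diabetic wound 1, 3 or 4.

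The 4 genes under the filter on low values, BMX, SEMA3E, STAB2 and NTS, were each compared between the groups with an exact permutation test, two-sided, for which the 330 ways of assigning the wounds give a smallest p of 0.00303. STAB2, a scavenger receptor of lymphatic and sinusoidal endothelium, was at 0.365 FPKM or more in every diabetic wound and at 0.290 FPKM or less in every non-diabetic wound (exact p = 0.0182, unadjusted). BMX had an exact p of 0.109, SEMA3E of 0.197 and NTS of 0.482.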

How the data were processed

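RNA was sequenced from 7 diabetic and 4 non-diabetic wounds, 1 library per wound, after poly-T selection and directional library construction. Per the submitters' processing notes, the authors used fastp, HISAT2 2.2.1 with Sscrofa11.1, StringTie 2.2.3 and featureCounts 2.0.6. Their own test, per the study's methods, was DESeq2. The deposited FPKM values were made by the authors. Their formula, the annotation release and the strand setting of the counting are not given in the sources used here. Multiplied by gene length, 100% of the values were whole multiples of 1 read within 0.05 reads, which gave the depth (28314785 to 40168372 reads on genes). For a gene of 2 kb, 1 read was worth 0.0112 to 0.0194 FPKM. The gene identifiers and starts were those of NCBI's Sscrofa11.1, with the same start for all 30335 identifiers found there.

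Genes with at least 0.5 FPKM in at least 4 libraries (13956) were compared as log2(FPKM + 0.5) with limma 3.58.1 (lmFit, eBayes with trend, R 4.3.3) and Benjamini-Hochberg adjustment over all of them. Calls needed an adjusted p under 0.05 and an absolute difference over 0.5. Single genes under the filter were compared by exact permutation. The 40 genes all passed the filter and all are named. Of each further list the called genes, the most abundant gene and the genes under the filter are named. NOTCH2, HEY1, HES1, NRARP, HEYL, EFNB2, NR2F2, APELA, FABP4, ADIPOQ, PLIN1, CIDEC, LEP, ANGPT4, SEMA3G and HIGD1B were named after their values were seen. The same holds for CD34 and DES. The members, lists, classes and tests were chosen with earlier results of these data, and the study's table of called genes, known. The test was tried on simulated data. Alternatives changed the pseudocount, filter, scaling, spread estimate, library weights, covariates and wounds included, and used voom on the recovered reads. PDGFB and COX4I2 were not matched by symbol and were not analysed here. Promoter windows were read with Python 3.11.15, pandas 2.3.3 and numpy 2.4.6, and figures drawn with matplotlib 3.10.9.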

Additional observations from a re-analysis of the deposited data

Results flagged for a closer look

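Each of the 40 genes and 12 further named vessel genes was searched for a wound far from the others of its group (52 genes in 2 groups, 104 searches), and 5 values were marked, where chance marks about 1 in 20 groups. In diabetic wound 1, APLN was at 3.93 FPKM, with the next diabetic wound at 2.38 FPKM, and it still lay below every non-diabetic wound. Without that wound the log2 difference of APLN was -1.43. In the same wound MMRN1 was at 31.3 FPKM, with the next diabetic wound at 14.8 FPKM. Among non-diabetic wounds, MMRN2 was lowest in wound 2, at 3.23 FPKM against 3.76 FPKM in the next. FLI1 was lowest in non-diabetic wound 3, at 9.49 FPKM against 11.9 FPKM in the next. ANGPT2 was lowest in non-diabetic wound 1, at 2.23 FPKM against 2.54 FPKM in the next, where the other 3 wounds lay within 2.54 to 2.56 FPKM. The cause of these values was not tested.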

How the results depend on the processing

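Across 26 alternatives APLN was called lower in 25, PLVAP higher in 13, DLL4 lower in 8 and VEGFC higher in 1, and 36 of the 40 genes were called in none. No called gene of the 40 changed direction, and 12 genes that were not called changed sign in 37 of 1039 values. The number of the 40 called higher was 1 in the main analysis. It was 0 under quantile normalization, scaling on 6 endothelial genes, the replicate block and without both diabetic wound 4 and non-diabetic wound 1, it was 2 with voom on the recovered reads, and it was 0 to 1 when single wounds were left out. The number called lower was 1, or 2 with DLL4 added under a pseudocount of 1, a filter of 1 FPKM, no trend, robust estimation, library weights and a keratinocyte covariate, 0 under the replicate block, and 1 to 2 when single wounds were left out. Of the other vessel genes, the number called higher was 4, with 6 under library weights (ANGPT4, SEMA3G and HIGD1B added, JAG2 lost), 3 under a pseudocount of 1, no filter, quantile normalization, scaling by total reads, endothelial scaling and voom, 0 under the replicate block, 2 without both wounds, and 1 to 5 when single wounds were left out. ANGPTL4 was the one left without non-diabetic wound 2 or 3. The number called lower was 2, with 1 under no filter, scaling by total reads, the library letter covariate or without both wounds, 5 under library weights, 0 under the replicate block, and 1 to 4 when single wounds were left out. SEMA3C was among those called in every alternative but the replicate block, and RGS5 was lost without diabetic wound 3, 4, 5, 6 or 7 and without non-diabetic wound 1, 3 or 4.

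The replicate numbers of the labels did not pair the wounds: deviations of same-numbered wounds correlated at -0.267, 0.215, 0.068 and -0.483. With that number as a block, 11 of all genes were called higher and 5 lower, against 188 and 231, and 0 of the 40. APLN then differed by -1.27 (adjusted p = 0.144, limma, over a range of 0.000991 to 0.144 for its alternatives) and PLVAP by 0.45 (adjusted p = 0.546, over 0.00316 to 0.546). Over all genes the calls were 143 higher and 261 lower with endothelial scaling, 149 and 259 with voom, 406 and 416 with library weights, and 106 and 81 without both wounds. The block leaves fewer wounds that bear on the comparison, and the causes of the other changes were not tested. With 1 animal per group, no alternative separates diabetes from the animal.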
